A study of Mus musculus with 18 samples.

Results

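The genes described are those of the enzymes that build triglyceride in the liver, read from a study of dietary bisphenol A, a weakly estrogenic monomer of plastics. They were taken by name: every probe on the array whose deposited gene name was Gpam, Agpat2, Lpin1, Lpin2, Lpin3, Dgat1, Dgat2 or Mogat1. That gave 19 probes of 8 genes, of 41174 probes on the array. All 19 passed the filter on dim probes, which kept 25427 probes (signal well over background on 6 or more of 18 arrays). All mice were male, CD-1 strain and 9 weeks old, and for 28 days ate a powdered diet rich in starch and sucrose. The control group (6 mice) received 0 µg of bisphenol A, the low-dose group (6 mice) a nominal 50 µg per kg per day and the high-dose group (6 mice) 5000 µg per kg per day, all in the same diet. The doses were calculated from an assumed food intake. Total RNA from a piece of the large liver lobe of each mouse was labelled with Cy3 and hybridised to its own 1-colour Agilent array, so replicates are separate animals.

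Triglyceride is made from glycerol 3-phosphate by adding fatty acids one at a time. Gpam, the mitochondrial glycerol-3-phosphate acyltransferase, adds the first, and an acylglycerolphosphate acyltransferase such as Agpat2 adds the second to give phosphatidate. The lipins (Lpin1, Lpin2 and Lpin3) remove the phosphate to give diacylglycerol, and the diacylglycerol acyltransferases Dgat1 and Dgat2 add the last fatty acid. Mogat1, a monoacylglycerol acyltransferase, reaches diacylglycerol from monoacylglycerol without the earlier steps. In liver the product is stored in lipid droplets or secreted in very-low-density lipoprotein, and transcription of Gpam is known to follow the insulin- and sterol-responsive factor SREBP-1c.

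At the low dose the transcripts for the first step and for the lipin 1 step were higher than in controls, and no probe for the last step passed the test. The Gpam probe was 4.11-fold higher at the low dose (log2 fold change 2.04 ± 0.32 SE, n = 6 mice each, limma, Benjamini-Hochberg adjusted p = 0.0174), and 1 of the 4 Lpin1 probes passed at 2.11-fold (1.08 ± 0.21 SE, adjusted p = 0.0454). These were the 2 of 19 probes past an adjusted p of 0.05, both higher, where 0.224% of all 25426 tested probes passed in either direction and 0.157% passed as higher. The count was 0 with slide as a fixed block, normexp background correction or array brightness as a covariate, 1 with array median scaling, and 0 without control mouse 5 or low-dose mouse 6. It was 5 in the fit of the 2 groups alone and without high-dose mouse 2. At an unadjusted p under 0.05, 8 of the 19 probes from 5 of the 8 genes were higher and 0 were lower, where 5.43% of all probes were higher. In 5 of the 19 probes (Gpam and all 4 of Lpin1) every low-dose mouse lay above every control, against 0.81% of all probes. The median log2 fold change of the 19 probes was 0.35, against -0.02 over all probes. Above 0 were 15 of the 19, and 11703 of all 25426. Under the other scalings and background method 14 to 16 of the 19 were above 0, as were 14 of the 17 probes that the deposited value table holds. Several probes read the same gene, so the 19 are not independent. A probe outside the 19 for the enzyme of Gpam, named M77003, was 2.28-fold higher at the low dose, less than the 4.11-fold of the Gpam probe. In whole liver RNA, a change in the share of a cell type and a change in RNA per cell cannot be told apart.

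At the high dose no probe passed against controls, among the 19 or among all 25426 tested (0% called by limma, smallest adjusted p 0.177). At an unadjusted p under 0.05 there were 1853 of all probes (7.29%) and 1 of the 19, the Lpin3 probe. The median of the 19 was 0.15, against -0.01 over all probes. Above 0 were 12 of the 19, and 12158 of all 25426. Between the doses, 0 of the 19 passed for high against low dose, where 11 of 25425 probes did (0.0433%). At an unadjusted p under 0.05, 7 of the 19 were lower at the high dose (the Gpam probe, the 4 Lpin1 probes and 2 of the 3 Lpin2 probes) and 0 were higher, where 4.33% of all probes were lower. Groups did not overlap on 1 of the 19, a Lpin1 probe lower at the high dose, where 0.409% of all probes were lower without overlap. The median of the 19 for high against low dose was -0.39, against 0.01 over all probes. Both sets of dosed mice were set against the same 6 controls, and the 2 comparisons with the low dose share the low-dose mice.

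**Figure D1:**
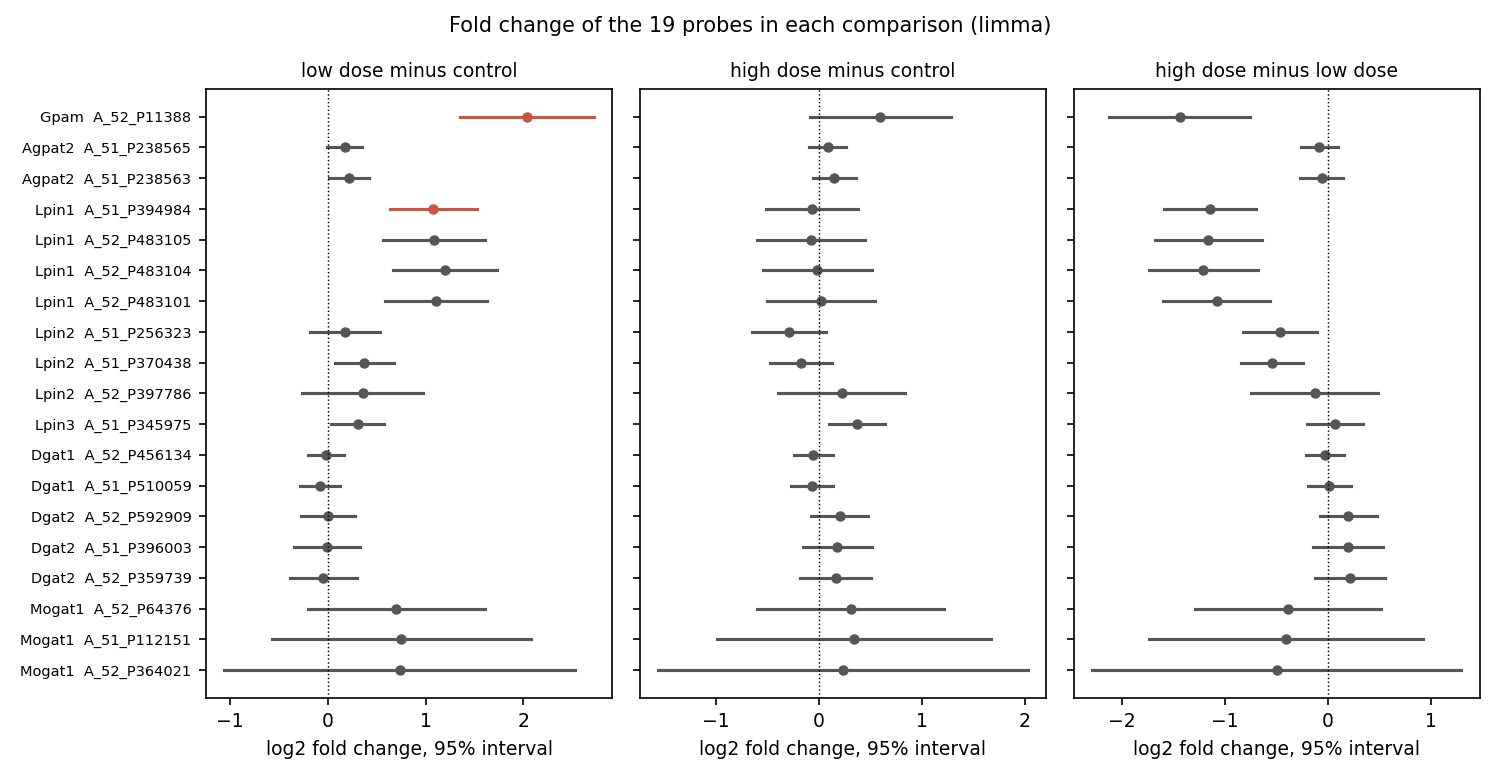
The log2 fold change of each of the 19 probes is drawn as a point with its 95% interval from limma. Rows are named by gene and probe and run in pathway order from top to bottom, except that Mogat1 is placed last. The panels are low dose minus control, high dose minus control and high dose minus low dose, with probes past an adjusted p of 0.05 in red. Gpam at 2.04 and 1 Lpin1 probe at 1.08 are red for the low dose, the Lpin1 points lie near 0 for high dose minus control, and the Dgat1 points lie near 0 in all 3 panels.

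The probe level used throughout is the log2 intensity minus the 75th percentile of its own array, so that 0 is the brightness of that percentile and a negative level is a dimmer probe. Levels of different probes cannot be set against each other. The 18 arrays lay on 5 slides, all with mice of both doses and 4 with controls. A slide was taken here as the arrays that share 1 scan date in the file headers, so slide and scan date cannot be told apart. The controls had slide position 1 or 4 and 5 of the 6 low-dose mice had position 2 or 3, so position largely cannot be told apart from low dose against control. The high-dose mice had position 2, 3 or 4, which both other groups shared in part. The arrays of dosed mice were brighter, with a 75th percentile of 230 ± 43.1 in controls, 295 ± 44.0 in low-dose mice and 292 ± 34.1 in high-dose mice (SD, n = 6 each). The difference on the log2 scale was 0.37 for low dose against control (exact permutation p = 0.0303) and 0.36 for high dose against control (exact permutation p = 0.0173). The median of the level differences over all probes was near 0, as given above. Hepatocyte markers were well above background on all arrays for all 9 genes of the list on the array (10 listed), and their summed level was 9.83 to 10.3 in controls, 9.72 to 10.1 in low-dose mice and 9.76 to 10.1 in high-dose mice. Alb was saturated on 18 of the 18 arrays, Apoa1 on 17 and Cyp2e1 on 4, so that sum rests partly on saturated spots and gives no measure of how alike the groups were in hepatocytes. Of the 8 adipocyte markers, 4 (Adipoq, Plin1, Lep and Ucp1) were well above background on no array. Lipe was so on 18 arrays, Cfd on 6, Adrb3 on 4 and Retn on 1. The summed level was -1.21 to -0.62 in controls, -1.47 to -0.71 in low-dose mice and -1.57 to -0.57 in high-dose mice. That sum was mostly Lipe, which averaged -1.26 in controls, where the other adipocyte markers averaged -5.23 or lower. The summed levels of Kupffer cell, stellate cell, sinusoidal endothelium, B cell and pancreas markers overlapped between all 3 groups, and their part in the results was not tested.

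The sequences upstream of the 2 genes with a probe past the threshold for low dose against control are shown. They are RefSeq promoters (GRCm38.p6), each running from 250 bases before to 50 bases after a transcript start, 5′ to 3′ on the gene's strand. Gpam has 2 starts in that table, at chr19:55127189-55127488 and chr19:55099428-55099727 (both minus strand), and Lpin1 has 1, at chr12:16610917-16611216 (minus strand). Capitals mark a match to 1 of 4 motifs searched on both strands. They were the E-box (CACGTG), the CCAAT box, the GC box (GGGCGG) and the sterol regulatory element (TCACNCCAC). The first Gpam promoter holds 1 CCAAT box on the opposite strand, at -74 to -70 from the start. The second holds 1 GC box on the opposite strand, at -16 to -11. The Lpin1 promoter holds none of the 4 spellings.
Gpam promoter 1: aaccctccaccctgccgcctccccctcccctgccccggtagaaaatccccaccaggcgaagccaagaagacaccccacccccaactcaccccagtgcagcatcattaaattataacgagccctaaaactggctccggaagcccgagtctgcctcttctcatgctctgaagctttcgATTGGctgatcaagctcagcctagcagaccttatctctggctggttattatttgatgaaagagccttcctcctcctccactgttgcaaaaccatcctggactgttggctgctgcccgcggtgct
Gpam promoter 2: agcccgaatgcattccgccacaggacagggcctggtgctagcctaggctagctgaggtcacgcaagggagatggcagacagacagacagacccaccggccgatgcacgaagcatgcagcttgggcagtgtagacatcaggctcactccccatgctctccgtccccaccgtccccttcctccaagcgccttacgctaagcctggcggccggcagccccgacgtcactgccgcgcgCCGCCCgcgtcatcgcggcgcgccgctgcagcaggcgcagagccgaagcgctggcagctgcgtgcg
Lpin1 promoter: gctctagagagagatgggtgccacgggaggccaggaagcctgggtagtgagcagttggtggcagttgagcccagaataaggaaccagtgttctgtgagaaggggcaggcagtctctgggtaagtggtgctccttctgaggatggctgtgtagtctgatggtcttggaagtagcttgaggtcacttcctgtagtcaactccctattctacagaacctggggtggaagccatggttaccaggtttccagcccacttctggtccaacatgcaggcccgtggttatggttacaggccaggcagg

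Of all 32851 RefSeq promoters of this length, 7.15% hold the E-box, 37.4% the CCAAT box, 35.7% the GC box and 1.24% the sterol regulatory element. In all, 6 of the 8 members matched the table, with 10 promoters, and none of the 10 holds the sterol regulatory element in this spelling. The E-box was found in 1 of 3 Lpin2 promoters (-9 to -4) and in 1 of 2 Lpin3 promoters (23 to 28). A match is a run of letters, not a measured binding site. Dgat1 and Dgat2 have no promoter printed here.

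Gpam commits glycerol 3-phosphate to glycerolipid synthesis. Its probe A_52_P11388 (NM_008149) lies at chr19:55124163-55124222, minus strand, mm8, as the deposited files give it. Exon and UTR positions of the probes were not assigned here. Gpam levels were lowest 0.48, median 1.37 and highest 2.39 in low-dose mice, and lowest -1.02, median -0.71 and highest -0.10 in control mice. The low-dose range was wholly above the control range, and the low-dose mice were spread more widely (SD 0.74, against 0.34 in controls). In high-dose mice the lowest level was -0.71, the median -0.16 and the highest 1.15. High-dose mouse 6 stood above the other 5 of its group and within the low-dose range, while the other 5 lay below the lowest low-dose mouse.

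For low dose against control, the log2 fold change of the Gpam probe was 2.04 ± 0.32 SE (adjusted p = 0.0174, rank 11 of all probes by p). For high dose against control it was 0.60 ± 0.32 SE (95% interval -0.08 to 1.28, adjusted p = 0.719), and for high against low dose -1.44 ± 0.32 SE (95% interval -2.12 to -0.75, adjusted p = 0.145). Neither of the comparisons with the high dose passed. Within single slides the low-dose mice were above the controls on 4 of 4 slides, by 1.05 to 2.89, and the high-dose mice were below the low-dose mice on 5 of 5 slides, by log2 differences of -1.91 to -0.95. The low-dose difference was no longer past the threshold with array brightness as a covariate (1.74, adjusted p = 0.364), with slide as a fixed block (1.89, adjusted p = 0.123) or with normexp background correction (1.44, adjusted p = 0.0742), nor without control mouse 5 (1.99, adjusted p = 0.0566) or low-dose mouse 6 (1.91, adjusted p = 0.0541). The adjusted p ran from 0.00996 to 0.364 over 12 settings, and every setting had it higher at the low dose.

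A second probe for this enzyme is on the array under the name M77003, A_51_P471819, which the files describe as mouse glycerol-3-phosphate acyltransferase and which was added after its values were seen. It lies 3141 bases from the Gpam probe, at chr19:55120963-55121022 (mm8). Its levels were lowest 5.47, median 5.94 and highest 6.58 in controls, lowest 6.68, median 7.08 and highest 7.74 in low-dose mice, and lowest 5.92, median 6.11 and highest 6.72 in high-dose mice. Every low-dose mouse lay above every control, by as little as 6.68 against 6.58, and the low-dose and high-dose mice overlapped. It differed by a log2 fold change of 1.19 ± 0.20 SE for low dose against control (adjusted p = 0.0265), where the dimmer Gpam probe gave 2.04. The M77003 spot was saturated on the array of low-dose mouse 1, where its true brightness can only be higher. For high against low dose the M77003 log2 fold change was -0.92 ± 0.20 SE (adjusted p = 0.145). The Gpam and M77003 probes correlated at r = 0.94 over the 18 arrays, which share their RNA.

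**Figure D2:**
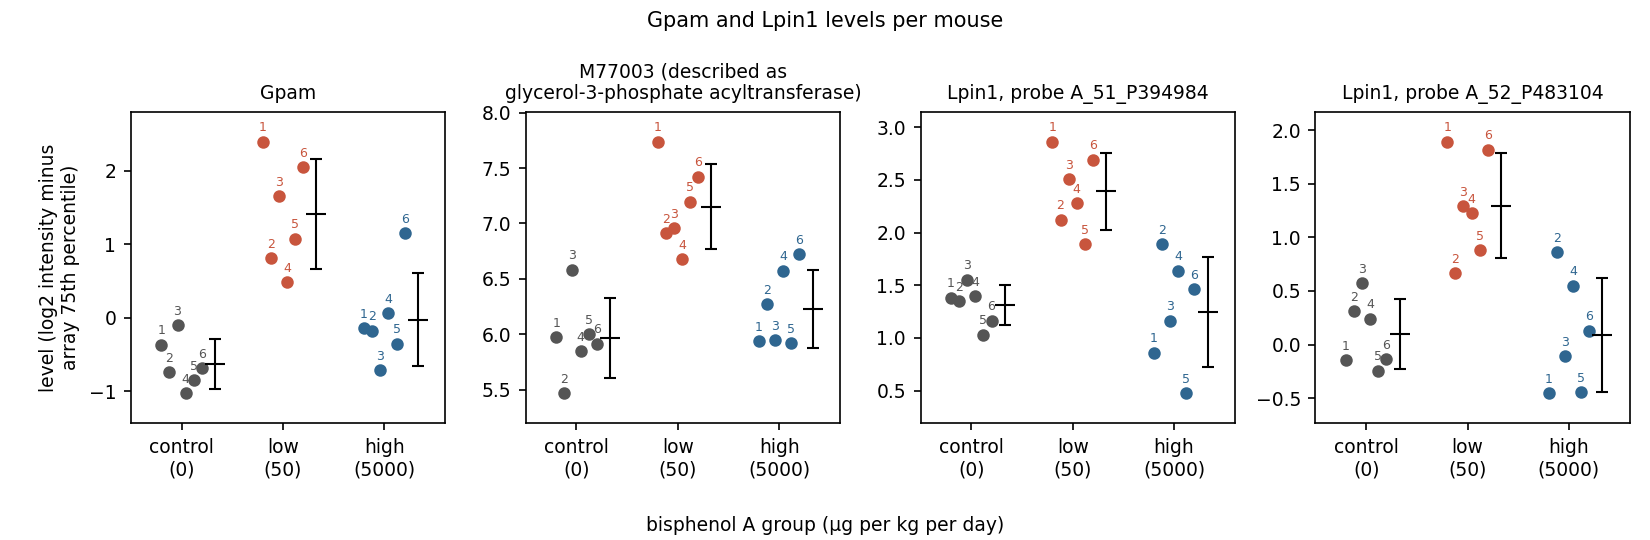
Each point is the level of 1 mouse (log2 intensity minus the array's 75th percentile, vertical axes of differing range) at 0, 50 and 5000 µg per kg per day, numbered by mouse, with the group mean and SD as the bar beside it, for the Gpam probe, the M77003 probe and 2 of the Lpin1 probes. Low-dose mice lie above all controls in all 4 panels, and among the high-dose mice, mouse 6 is the highest for Gpam (1.15) and mouse 2 for Lpin1 on A_51_P394984 (1.89).

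Agpat2, which adds the second fatty acid and whose loss causes lipodystrophy in people and mice, showed small differences. Its probe A_51_P238565 (NM_026212, chr2:26418117-26418176, minus strand, mm8) had levels of lowest 3.62, median 3.80 and highest 3.86 in controls, lowest 3.81, median 3.90 and highest 4.15 in low-dose mice, and lowest 3.63, median 3.87 and highest 4.05 in high-dose mice. The 3 groups overlapped. Low dose against control gave a log2 fold change of 0.17 ± 0.09 SE on this probe (adjusted p = 0.437) and 0.22 ± 0.10 SE on A_51_P238563 (adjusted p = 0.380). The values for high dose against control were 0.09 and 0.15. Neither probe passed in any comparison.

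Lpin1, the phosphatidate phosphatase that in mouse liver also acts in the nucleus as a coactivator of fatty acid oxidation genes, was read by 4 probes on chromosome 12 (mm8, minus strand), at 16561989 to 16562047 for A_51_P394984 (AF180471) and between 16562803 and 16562942 for the other 3 (NM_015763), of which A_52_P483104 and A_52_P483105 overlap. Levels on A_51_P394984 were lowest 1.03, median 1.36 and highest 1.55 in controls, lowest 1.89, median 2.39 and highest 2.86 in low-dose mice, and lowest 0.47, median 1.31 and highest 1.89 in high-dose mice. The low-dose range was again wholly above that of controls. The low-dose and high-dose mice touched: the lowest low-dose mouse was at 1.890 and the highest high-dose mouse at 1.888. The high-dose mice reached both below and above the control range, with SD 0.52 against 0.19 in controls.

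On A_51_P394984 the log2 fold change was 1.08 ± 0.21 SE for low dose against control (adjusted p = 0.0454), -0.06 ± 0.21 SE for high dose against control (95% interval -0.51 to 0.38, adjusted p = 0.965) and -1.14 ± 0.21 SE for high against low dose (adjusted p = 0.0783). The other 3 Lpin1 probes differed by 1.09, 1.20 and 1.11 at the low dose (adjusted p = 0.0711, 0.0614 and 0.0690 for A_52_P483105, A_52_P483104 and A_52_P483101) and did not pass, though on each of them every low-dose mouse lay above every control. High-dose mice differed from controls on these 3 probes by -0.07, -0.01 and 0.03, signs that each turned under at least 1 other setting. The 4 probes correlated with each other at r = 0.96 to 0.98 over the 18 arrays, values that share the same RNA extracts. On A_51_P394984 the low-dose mice were above the controls on 4 of 4 slides, by 0.80 to 1.66.

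The Lpin1 call lay close to the threshold. Its adjusted p was past 0.05 in 6 of 12 other settings, where it ran from 0.0276 to 0.479, and in 6 of 18 fits without 1 mouse, where it ran from 0.0283 to 0.121. It was lost when any control mouse (1 to 6) was left out, and when low-dose mouse 1, 2, 3 or 6 or high-dose mouse 1 or 3 was, while the log2 fold change stayed between 0.84 and 1.22 in all of these. With array brightness as a covariate the value was 0.84 (adjusted p = 0.479), and with slide as a fixed block it was 0.97 (adjusted p = 0.177).

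**Figure D3:**
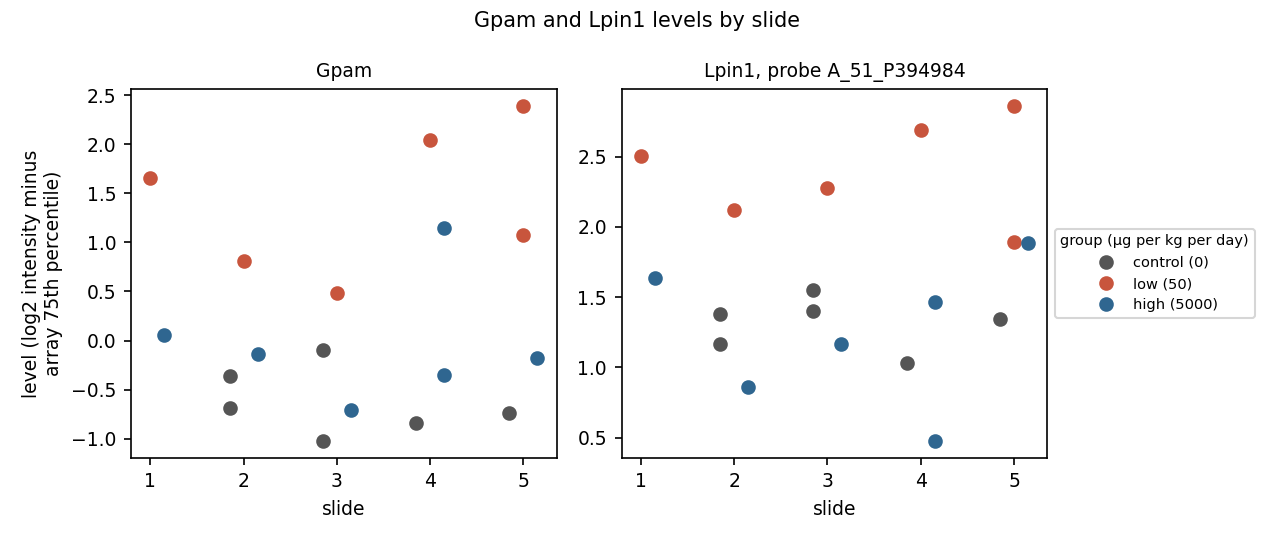
The level of the Gpam probe and of Lpin1 probe A_51_P394984 in each mouse (log2 intensity minus the array's 75th percentile) is plotted by slide 1 to 5, coloured by dose of bisphenol A. On slides 2 to 5 the low-dose points lie above the control points of the same slide in both panels, slide 1 holds no control, and on each slide the high-dose mean lies below the low-dose mean.

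Lpin2, the lipin whose loss in people causes an inflammatory bone disease and which is expressed in liver, was read by 3 probes on chromosome 17 (mm8, plus strand) that correlated weakly with each other (r = 0.41 to 0.52 over the 18 arrays). Levels on A_51_P370438 (NM_022882, a probe spread over 71151340 to 71151706) were lowest 0.02, median 0.22 and highest 0.45 in controls, lowest 0.40, median 0.57 and highest 0.78 in low-dose mice, and lowest -0.48, median 0.02 and highest 0.51 in high-dose mice. The groups overlapped, with high-dose mice 2, 4 and 6 below all 6 controls. The probe differed by a log2 fold change of 0.37 ± 0.14 SE for low dose against control (adjusted p = 0.279) and -0.54 ± 0.14 SE for high against low dose (adjusted p = 0.224). On the probe A_51_P256323 (71154515 to 71154574) the value for high against low dose was -0.46 ± 0.17 SE (adjusted p = 0.498), and on A_52_P397786 (71120079 to 71120138) -0.13 ± 0.29 SE (adjusted p = 0.961). None of the 3 Lpin2 probes passed in any comparison. Another 2 probes that the files describe as lipin 2 under the names AK165218 and AK048657, added after their values were seen, differed by 0.37 and 0.16 at the low dose, and by -0.70 and -0.29 for high against low dose (adjusted p = 0.475 and 0.841).

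Lpin3, the third lipin, had 1 probe (A_51_P345975, NM_022883, chr2:160597046-160597105, plus strand, mm8). Levels were lowest -2.21, median -1.59 and highest -1.37 in controls, lowest -1.55, median -1.49 and highest -1.11 in low-dose mice, and lowest -1.48, median -1.37 and highest -1.13 in high-dose mice. Control mice 1 and 4 lay lowest of all 18, and the groups overlapped. The log2 fold change was 0.37 ± 0.13 SE for high dose against control (adjusted p = 0.595, exact permutation p of this probe alone 0.00866). For low dose against control it was 0.31 ± 0.13 SE (adjusted p = 0.332, exact permutation p 0.0649), a value that was -0.04 with normexp background correction. For high against low dose it was 0.07 (95% interval -0.20 to 0.34). It passed in none of the 3 comparisons. For low dose against control the exact permutation p was as small or smaller on other member probes. It was 0.00866 for Agpat2 A_51_P238565, 0.00649 for Lpin2 A_51_P370438, and 0.00216 for Gpam and every Lpin1 probe.

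Dgat1, the acyltransferase of the endoplasmic reticulum that esterifies mainly fatty acids taken up from outside the cell, had log2 differences near 0 for both doses against control. Its probe A_52_P456134 (NM_010046, spread over chr15:76329953-76330099, minus strand, mm8) had levels of lowest 0.81, median 0.93 and highest 1.01 in controls, lowest 0.80, median 0.92 and highest 1.00 in low-dose mice, and lowest 0.56, median 0.92 and highest 1.07 in high-dose mice. Its log2 fold change was -0.02 for low dose against control (95% interval -0.21 to 0.17, adjusted p = 0.956) and -0.05 for high dose against control (95% interval -0.24 to 0.14, adjusted p = 0.931). On the second Dgat1 probe, A_51_P510059, these values were -0.08 (95% interval -0.29 to 0.13) and -0.06 (95% interval -0.27 to 0.14). The signs of these values turned under several settings.

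Dgat2, which esterifies mainly newly made fatty acids and sits also at lipid droplets, had 3 probes within chr7:99028897-99029793 (NM_026384, minus strand, mm8). Levels on A_52_P592909 were lowest 6.78, median 7.09 and highest 7.22 in controls, lowest 6.61, median 7.15 and highest 7.28 in low-dose mice, and lowest 7.03, median 7.16 and highest 7.72 in high-dose mice. The groups overlapped almost fully, and high-dose mouse 2 was the highest of all 18 on each of the 3 Dgat2 probes (7.72, 5.91 and 4.06), saturated on the first. Low dose against control gave a log2 fold change of 0.01 (95% interval -0.27 to 0.28, adjusted p = 0.992) on A_52_P592909, -0.01 on A_51_P396003 and -0.05 on A_52_P359739, and the A_51_P396003 and A_52_P359739 values were above 0 with normexp background correction (0.30 and 0.27). High-dose mice differed from controls on the 3 probes by 0.20, 0.18 and 0.16 (adjusted p = 0.762, 0.820 and 0.844). Without high-dose mouse 2 these values were 0.11, 0.025 and 0.014.

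Mogat1, an enzyme that is low in normal liver, had the widest spread between high-dose mice of all members. Its brightest probe A_52_P64376 (NM_026713, chr1:78421218-78421277, plus strand, mm8) had levels of lowest -3.82, median -2.82 and highest -2.40 in controls, lowest -3.33, median -2.19 and highest -1.42 in low-dose mice, and lowest -3.98, median -2.51 and highest -1.27 in high-dose mice. The groups overlapped. The log2 fold change for low dose against control was 0.70 ± 0.43 SE (95% interval -0.21 to 1.60, adjusted p = 0.552), a value that was -0.15 with normexp background correction. The SD on this probe was 0.51 in controls, 0.66 in low-dose mice and 1.09 in high-dose mice. The second Mogat1 probe, A_51_P112151, was well above background on 16 of 18 arrays and the third, A_52_P364021, on 11 of 18 (3 control, 5 low-dose and 3 high-dose mice), so many of the levels on the third are not well above background. None of the 3 probes passed in any comparison, and they correlated with each other at r = 0.90 to 0.97.

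Within the high-dose group the mice did not keep 1 order across these genes. Mogat1 levels on A_52_P64376 were -1.95, -3.98, -1.27, -3.54, -1.74 and -3.07 in high-dose mice 1 to 6. Lpin1 levels on A_51_P394984 in the same mice were 0.86, 1.89, 1.16, 1.64, 0.47 and 1.46. On these 2 probes high-dose mice 2, 4 and 6 had the 3 highest Lpin1 and the 3 lowest Mogat1 levels of the group. This did not hold on every Lpin1 probe, since mouse 3 lay above mouse 6 on A_52_P483105 (0.72 and 0.54) and on A_52_P483101 (0.05 and -0.28). Levels of the Lpin2 probe A_51_P370438 were 0.33, -0.16, 0.51, -0.10, 0.15 and -0.48 in mice 1 to 6, with the 3 lowest in mice 2, 4 and 6, whereas on Lpin2 probe A_51_P256323 mouse 4 was the highest (3.96) and mouse 5 the lowest (3.41). The labels give these mice no difference, the pattern was seen in the values, and it was not tested.

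**Figure D4:**
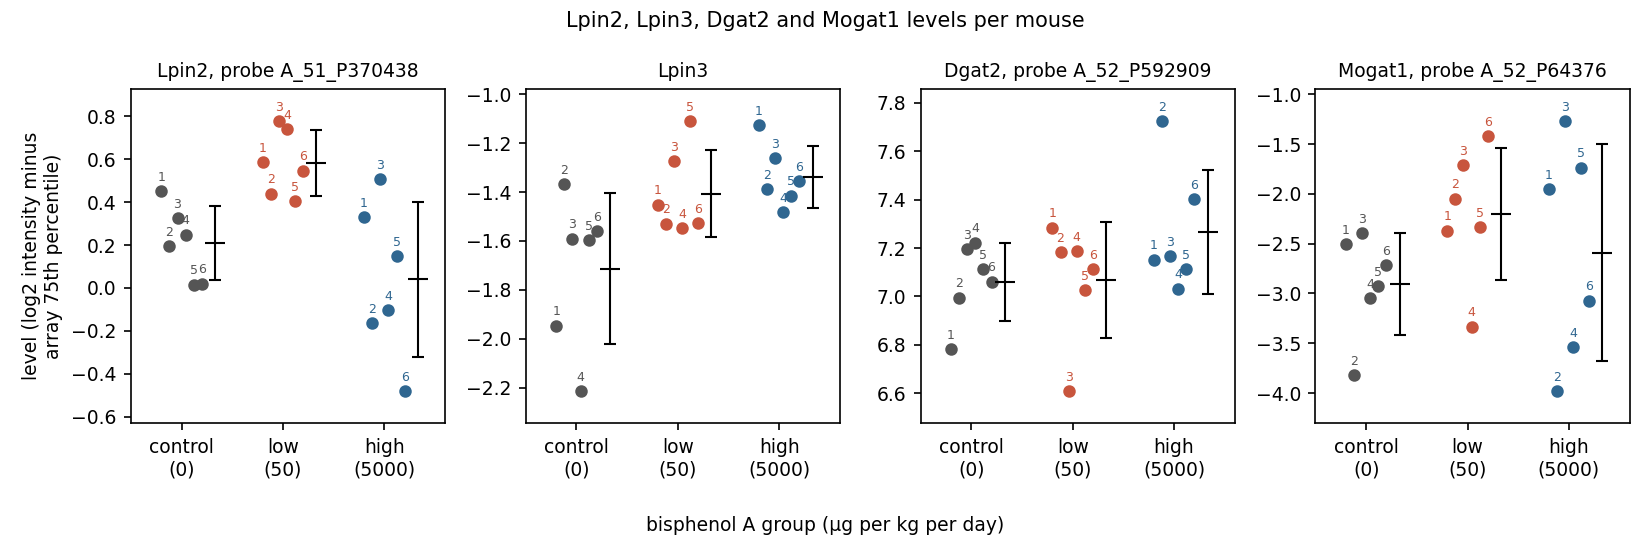
Each point is the level of 1 mouse (log2 intensity minus the array's 75th percentile, vertical axes of differing range) at 0, 50 and 5000 µg per kg per day, numbered by mouse, with the group mean and SD as the bar beside it, for 1 probe each of Lpin2, Lpin3, Dgat2 and Mogat1. The groups overlap in all 4 panels, high-dose mouse 2 is the highest for Dgat2 (7.72), and it is the lowest of its group for Mogat1 (-3.98).

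The other genes of glycerolipid synthesis did not follow Gpam and Lpin1 past the threshold. Of 29 listed genes, which supply glycerol 3-phosphate, carry out the same acyl transfers and phosphatase steps or lead to phospholipids, 25 were tested, each on its brightest kept probe. Gpat2 and Lclat1 had no probe under those names, and no probe of Cds1 or Pcyt1b was kept. For low dose against control 0 of the 25 passed, 6 were above 0 and 19 below, and the median was -0.12. At the high dose against control 0 passed, with 6 above 0 and 19 below and a median of -0.10. For high against low dose 0 passed, with 14 above 0 and 11 below and a median of 0.00. Over all probes, 11703 of 25426 were above 0 for low dose against control (median -0.02). For high dose against control 12158 of 25426 were (median -0.01), and for high against low dose 13501 of 25425 (median 0.01). By limma at an unadjusted p under 0.05, 1 of the 25 was higher and 4 were lower for low dose against control, where 12.3% of all probes were past it in either direction. For high dose against control 2 were higher and 3 lower, where 7.29% of all probes were, and for high against low dose 2 were higher and 2 lower, where 7.66% were.

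Closest to the threshold was Pcyt1a, the regulatory enzyme of phosphatidylcholine synthesis, which averaged 0.69 ± 0.11 at the low dose and 0.32 ± 0.09 in controls (SD, n = 6 each). Its log2 fold change was 0.37 ± 0.08 SE (adjusted p = 0.0531), and every low-dose mouse lay above every control. For low dose against control the groups did not overlap on 2 of the 25 genes, Pcyt1a (higher) and Plpp3 (lower), against 1.84% of all probes. For high dose against control they did not overlap on 2 of the 25, Pcyt1a (higher, 0.18) and Agpat3 (lower), against 0.472% of all probes. The lipid phosphate phosphatases Plpp2 and Plpp3, which act outside the lipin step, differed by -0.52 each for low dose against control (adjusted p = 0.183 and 0.292), and by 0.43 and 0.48 for high against low dose (adjusted p = 0.537 and 0.623). The Plpp3 spot of high-dose mouse 4 was an outlier spot and was dropped, leaving 5 high-dose mice for it. Plpp2 also lacked a value on 1 array, in the high-dose group. Agpat3, a lysophospholipid acyltransferase, differed by -0.16 for low dose against control (adjusted p = 0.343) and by -0.20 for high dose against control (adjusted p = 0.595). For high dose against control, Cept1, which makes phosphatidylcholine and phosphatidylethanolamine, differed by -0.36 (adjusted p = 0.574), Chka, a choline kinase, by -0.45 (adjusted p = 0.626) and Mogat2 by 0.79 (adjusted p = 0.642). For high against low dose Chka differed by -0.44 (adjusted p = 0.509) and Pcyt1a by -0.18 (adjusted p = 0.574).

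The genes whose levels ran most like those of Gpam over the 18 arrays included 4 genes of fatty acid synthesis. By Pearson correlation with the Gpam probe they were Acaca (r = 0.93), which makes malonyl-CoA, Agtrap (0.92), an angiotensin receptor binding protein, Fasn (0.92), the fatty acid synthase, Elovl6 (0.91), a fatty acid elongase, and Acly (0.91), which makes cytosolic acetyl-CoA. For Lpin1 probe A_51_P394984 they included Chrna4 (0.90), a nicotinic receptor subunit, Fasn (0.90), Ttc23 (0.89) and Insig1 (0.89), which holds back SREBP processing. After the group means were taken out, r was 0.72 to 0.81 for the Gpam set and 0.65 to 0.78 for the Lpin1 genes named. These are descriptions over 18 arrays that share their group differences and array brightness, with the highest picked from 24869 probes.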

How the data were processed

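The authors deposited 1 scanner file per array from Agilent Feature Extraction (version 9.5 per the submitters' processing notes, 9.5.3.1 per the file headers). Per the file headers, that software subtracted background to make the deposited intensity, which is in arbitrary units and was not scaled across arrays. The deposited value table of log2 values (22514 probes, 17 of the 19 described) has no stated steps and was used as an alternative. For those 17 probes its values correlated with the scanner values at r = 0.74 to 0.99.

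The log2 of the intensity was taken and the 75th percentile of each array subtracted. Outlier spots were dropped and repeated spots averaged, giving 41174 probes from 43379 spots. Probes well above background on at least 6 of 18 arrays were kept. One probe gave no p in the comparisons with control, and 25426 were tested. The 3 groups were fitted together with limma 3.58.1 (lmFit and eBayes) in R 4.3.3, and 2-sided p-values were adjusted over all probes by Benjamini-Hochberg, with a threshold of 0.05. Single probes were also compared by an exact permutation test (smallest p possible 0.00216 for 6 mice against 6). The number of arrays limits the precision, and the median SE over all probes was 0.16.

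All member probes are reported. The other glycerolipid genes named are up to 4 with the smallest p per comparison, and the genes most like Gpam and Lpin1 are the 5 with the highest correlation, of which 1 is not reported here. Members, lists and rules were chosen with earlier results of these data known. On simulated data for low dose against control (24869 probes) 18% of changes of 0.5 were called, 64% of 1 and 96% of 2, and 7.52% of calls were false. It was 1 run with 50 probes per size of change. Noise was drawn independently for each probe, without slide or brightness differences, so these shares need not hold for the real arrays. Array pairs correlated at 0.954 to 0.986, so none was a copy. Probe coordinates are those of the files (mm8). Promoters are from RefSeq, searched with Python 3.11.15. Alternatives tried were other scalings, normexp background (offset 50), the value table, other filters, 1 probe per gene, 2 groups only, slide, mouse number, array brightness and leaving out each mouse.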

Additional observations from a re-analysis of the deposited data

Results flagged for a closer look

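In 57 checks (19 probes in 3 groups of 6 mice), 0 had a highest or lowest mouse standing apart from its group beyond Dixon's 95% limit.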

How the results depend on the processing

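Of the 19 probes, the 2 past the threshold for low dose against control became 1 with array median scaling, 0 with normexp background correction, 1 with no filter on dim probes, 5 with only probes well above background on all arrays, 5 in a fit of only the 2 groups compared, 0 with slide as a fixed block and 0 with array brightness as a covariate. Over all probes the 57 became 15, 7, 15, 127, 142, 4 and 0 under the same settings in that order. For high against low dose the 11 over all probes became 7 with array median scaling, 1 with normexp background correction, 4 with no filter, 5 with 1 probe per gene, 0 in a fit of only the 2 groups and 0 with slide as a fixed block. The filter on all arrays gave 1 of the members for high against low dose, Lpin1 A_51_P394984. Leaving out 1 mouse at a time gave 0 to 5 of the members and 7 to 111 of all probes for low dose against control, and 0 to 1 and 0 to 17 for high against low dose. The members' count was 0 without control mouse 5 or low-dose mouse 6 and 5 without high-dose mouse 2, and that for all probes was 7, 8 and 111 in these fits. Every setting gave 0 for high dose against control. The cause of these shifts was not tested.

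Same-numbered mice of 2 groups correlated at -0.29 to 0.33 in their deviations from the group means. For high dose and control the mean was 0.14, against -0.03 for mice of different number, and 3 mice matched their own number best. These values were -0.05, 0.01 and 1 for low dose and control, and -0.01, 0.003 and 2 for high and low dose. Whether mouse numbers pair the mice was not tested. With mouse number as a replicate block 1 of the members (Gpam) and 13 of all probes passed for low dose against control, and 0 of all probes for high against low dose.

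Normexp background correction moved the median of all probes to -0.16 for low dose against control and 0.12 for high against low dose, so its values are to be read against that shift. None of the values that turned sign was past the threshold in its comparison. With array brightness as a covariate the log2 fold changes that turned sign were, for low dose against control Lpin2 A_52_P397786 -0.15, Dgat1 A_52_P456134 0.045, Dgat1 A_51_P510059 0.00030, Dgat2 A_51_P396003 0.021 and Dgat2 A_52_P359739 0.064, and for high dose against control Lpin1 A_52_P483101 -0.30, Lpin2 A_52_P397786 -0.26, Dgat1 A_52_P456134 0.013 and Dgat1 A_51_P510059 0.012. With array median scaling the log2 fold changes that turned sign were, for high dose against control Lpin1 A_52_P483101 -0.033, and for high against low dose Dgat1 A_51_P510059 -0.044. In the deposited value table the log2 fold changes that turned sign were, for low dose against control Dgat2 A_51_P396003 0.0037, and for high dose against control Lpin1 A_51_P394984 0.015 and Lpin1 A_52_P483104 0.068. With normexp background correction the log2 fold changes that turned sign were, for low dose against control Lpin2 A_52_P397786 -0.19, Lpin3 A_51_P345975 -0.039, Dgat1 A_52_P456134 0.14, Dgat1 A_51_P510059 0.049, Dgat2 A_51_P396003 0.30, Dgat2 A_52_P359739 0.27, Mogat1 A_52_P64376 -0.15, Mogat1 A_51_P112151 -0.16 and Mogat1 A_52_P364021 -0.27, and for high dose against control Lpin1 A_51_P394984 0.045, Lpin1 A_52_P483105 0.0070, Lpin2 A_52_P397786 -0.041, Dgat1 A_52_P456134 0.018 and Mogat1 A_52_P364021 -0.011, and for high against low dose Lpin2 A_52_P397786 0.14, Dgat1 A_51_P510059 -0.053, Dgat2 A_52_P592909 -0.049, Mogat1 A_52_P64376 0.24, Mogat1 A_51_P112151 0.28 and Mogat1 A_52_P364021 0.26. With quantile normalisation the log2 fold changes that turned sign were, for low dose against control Dgat2 A_51_P396003 0.020, and for high dose against control Lpin1 A_52_P483104 0.0020. With slide as a fixed block the log2 fold changes that turned sign were, for low dose against control Dgat1 A_52_P456134 0.035, Dgat2 A_51_P396003 0.030 and Dgat2 A_52_P359739 0.033, and for high dose against control Lpin1 A_52_P483101 -0.034, and for high against low dose Dgat1 A_51_P510059 -0.017. Without 1 mouse at a time some values near 0 also turned. The ranges for low dose against control were Dgat1 A_52_P456134 -0.043 to 0.0014, Dgat2 A_52_P592909 -0.051 to 0.10, Dgat2 A_51_P396003 -0.066 to 0.048 and Dgat2 A_52_P359739 -0.089 to 0.013. The ranges for high dose against control were Lpin1 A_51_P394984 -0.19 to 0.090, Lpin1 A_52_P483105 -0.21 to 0.052, Lpin1 A_52_P483104 -0.17 to 0.10, Lpin1 A_52_P483101 -0.11 to 0.15, Dgat1 A_52_P456134 -0.090 to 0.013, Dgat1 A_51_P510059 -0.11 to 0.015, Mogat1 A_51_P112151 -0.041 to 0.72 and Mogat1 A_52_P364021 -0.23 to 0.78. The ranges for high against low dose were Lpin2 A_52_P397786 -0.34 to 0.071, Dgat1 A_52_P456134 -0.070 to 0.033, Dgat1 A_51_P510059 -0.030 to 0.094 and Mogat1 A_52_P364021 -1.09 to 0.045. On some arrays 2 of the Mogat1 probes were not well above background.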
